A study of Zea mays with 96 samples.

Results

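Transcripts of 3 transcription factor genes, *bzip17* (Zm00001d046937), *gbf1* (Zm00001d039065), and *mybr13* (Zm00001d038288), were followed in immature maize endosperm that lacked the transcription factor Opaque2 (O2), one or both NAKED ENDOSPERM proteins (NKD1 and NKD2), or combinations of these. They are 3 of the 46430 genes counted. The 3 were selected from hub genes of the study, that is, genes whose level across libraries of one timepoint closely followed the summary profile of a coexpression module. All 3 were hubs of a module of 12 d after pollination (DAP), and *bzip17* and *gbf1* were also hubs of a module of 16 DAP. The genotype differences of the 3 genes at 12 DAP, and those of *bzip17* and *gbf1* at 16 DAP, took part in that choice. They are therefore given as a description with no test. The 8 DAP libraries, and the 16 DAP libraries for *mybr13*, took no part in these hub lists. The 3 genes were picked from the lists with earlier results of these data known, so tests there are not fully independent of the choice.

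O2 is a basic leucine zipper (bZIP) transcription factor that activates zein and other storage genes in the starchy endosperm, the storage tissue of the maize kernel. NKD1 and NKD2 are zinc finger transcription factors that limit the number of aleurone layers, the cells at the endosperm surface, and that take part in grain filling. *bzip17* encodes another bZIP protein. *gbf1* encodes G-box binding factor 1, a bZIP protein that binds the G-box, a short promoter element, and that was first described in maize as a factor induced by low oxygen. *mybr13* encodes a putative MYB-related DNA-binding protein. In a cascade of this kind, a regulator such as O2 can act on the promoters of further regulators, which then act on their own targets. The study lists *bzip17* and *gbf1* as potential targets of O2, but *mybr13* as a potential target of NKD2. Binding was not examined here.

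The libraries came from 7 homozygous mutant genotypes, namely the single mutants *nkd1*, *nkd2*, and *o2*, the double mutants *nkd1 nkd2*, *nkd1 o2*, and *nkd2 o2*, and the triple mutant *nkd1 nkd2 o2*, and from WT, at 8, 12, and 16 DAP. All genotypes descended from a selfed triple heterozygote in the W22 inbred background and carried the alleles *nkd1-Ds*, *nkd2-null*, and *o2* in the combinations named. The 4 libraries of each of the 24 groups came from 4 independent ears of field-grown plants, each library a pool of 3 endosperms, so fewer cells of a type and less RNA per cell cannot be told apart. Levels are counts per 1000000 reads on genes (CPM) after normalization over all 96 libraries by the trimmed mean of M-values (TMM). A difference was called where edgeR's quasi-likelihood test gave a Benjamini-Hochberg adjusted P below 0.05, over all genes tested, and the log2 fold change (log2FC) was above 1 in absolute size. All 3 genes passed the filter on low counts at every timepoint. Where all libraries of one group lay above or below all of another, this is a description. The share of all genes apart in this way was not counted.

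The depth was 31327665 to 68052826 reads on genes per library. In the 4 genotypes with mutant *o2*, the *o2* transcript (Zm00001d018971) had at most 81 reads in a library, against at least 777 reads in every library of the other 4 genotypes. The *nkd2* transcript (Zm00001d026113) averaged at most 0.575 CPM in every genotype with mutant *nkd2*. The *nkd1* transcript (Zm00001d002654) was lower but still present in *nkd1*, at 47.1 ± 8.95 CPM at 8 DAP, against 94.3 ± 19.0 CPM in WT (SD, n = 4 each). At 16 DAP it was at 96.9 to 137 CPM in *nkd1 o2*, against 122 to 154 CPM in WT. In *o2*, *nkd1* averaged 336, 612, and 626 CPM at 8, 12, and 16 DAP, against 94.3, 201, and 139 CPM in WT. *nkd2* averaged 38.6, 10.3, and 8.91 CPM in *o2*, against 50.6, 69.65, and 34.3 CPM. The part of these levels in comparisons with *o2* was not tested. Transcripts of 16 zein genes, the storage proteins of the starchy endosperm, summed to 260000 to 283000 CPM in WT at 16 DAP. Markers of other cell types could be looked up only for the aleurone pigment regulator *c1*, which was below 1.1 CPM in every library, and the part of cell composition in the results was not tested.

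At 8 DAP, before the main rise of zein transcripts, *bzip17* was already lower in *o2* than in WT, whereas for *gbf1* no difference between *o2* and WT was called and the level was higher in *nkd1*. For *bzip17*, the 4 *o2* libraries had 2.63, 4.46, 1.72, and 1.14 CPM, against 16.1, 12.8, 18.7, and 9.08 CPM in WT. The triple mutant *nkd1 nkd2 o2* had 3.23, 1.69, 1.12, and 2.88 CPM. Every *o2* and every triple mutant library was below every WT library. The log2FC of *bzip17* was −2.63 in *o2* (SE 0.494, adjusted P = 0.000151, edgeR) and −2.76 in *nkd1 nkd2 o2* (SE 0.496, adjusted P = 0.000121, edgeR). Of all genes tested, 13.7% were called lower in *o2* and 13.0% in *nkd1 nkd2 o2*. In *nkd1 o2*, *bzip17* had 1.76, 9.71, 4.40, and 5.11 CPM, where 1 library lay within the WT range, and its log2FC was −1.51 (SE 0.470, adjusted P = 0.0270, edgeR), in a comparison where 6.22% of genes were called lower. That call was lost without replicate 1 of every group (log2FC −1.13, adjusted P = 0.251) and without replicate 3 (−1.25, adjusted P = 0.185), and in a fit of *nkd1 o2* and WT alone (adjusted P = 0.0935, all by edgeR). In *nkd2 o2*, with 5.97, 6.76, 4.05, and 9.13 CPM, the log2FC of −1.19 missed the threshold (SE 0.466, adjusted P = 0.0876, edgeR), where 2.51% of genes were called lower. With O2 intact, *bzip17* averaged 17.6 ± 11.6 CPM in *nkd1*, 16.0 ± 4.38 CPM in *nkd2*, and 23.4 ± 6.51 CPM in *nkd1 nkd2*, against 14.2 ± 4.15 CPM in WT (SD, n = 4 each), and none of the 3 differences was called. The *nkd1* libraries were split, with 23.6 and 30.9 CPM above the WT range and 8.03 and 7.67 CPM below it.

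The level of *gbf1* at 8 DAP split the genotypes differently. It was 36.9, 31.6, 32.2, and 17.6 CPM in the *nkd1* libraries, against 9.76, 12.3, 15.2, and 16.5 CPM in WT. In *nkd2* it was 21.4, 19.5, 25.1, and 26.5 CPM, and in *nkd1 nkd2* 18.4, 29.0, 30.8, and 28.2 CPM. All libraries of these 3 genotypes were above all WT libraries. The log2FC of *gbf1* was 1.08 in *nkd1* (SE 0.213, adjusted P = 0.00110, edgeR), which was called, whereas 1.45% of all genes were called higher in *nkd1*. It was 0.72 in *nkd2* (SE 0.212, adjusted P = 0.0205, edgeR) and 0.97 in *nkd1 nkd2* (SE 0.213, adjusted P = 0.00236, edgeR), both under the fold threshold, with 0.715% and 1.78% of genes called higher in the 2 comparisons. The call in *nkd1* was lost through the fold threshold without replicate 1 (log2FC 0.83, adjusted P = 0.0254) or replicate 2 (log2FC 1.0, adjusted P = 0.0170, both edgeR). In the 4 genotypes with mutant *o2*, *gbf1* averaged between 9.92 ± 0.870 CPM in *nkd1 nkd2 o2* and 12.7 ± 2.49 CPM in *nkd1 o2*, against 13.4 ± 3.01 CPM in WT (SD, n = 4 each), and no difference from WT was called.

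The *o2* transcript itself was higher at 8 DAP in the genotypes with mutant *nkd* genes and intact *o2*. It was 90.4 to 119 CPM in *nkd1*, 51.1 to 90.5 CPM in *nkd2*, and 22.6 to 62.6 CPM in *nkd1 nkd2*, against 15.1 to 30.7 CPM in WT. The log2FC of *o2* was 2.29 in *nkd1* (SE 0.322, adjusted P = 6.39e-05, edgeR), 1.94 in *nkd2* (SE 0.318, adjusted P = 0.000374, edgeR), and 1.03 in *nkd1 nkd2* (SE 0.312, adjusted P = 0.0264, edgeR). The group means of both *gbf1* and *bzip17* were above WT in these 3 genotypes, and of these differences only that of *gbf1* in *nkd1* was called. Whether the *o2* level had a part in these levels was not tested.

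Further comparisons at 8 DAP, chosen after the data were seen, set genotypes against each other within mutant backgrounds. With loss of O2, *gbf1* was lower in *nkd1* (*nkd1 o2* against *nkd1*, log2FC −1.23, SE 0.214, adjusted P = 0.000486, edgeR), in *nkd2* (−1.02, SE 0.213, adjusted P = 0.00330, edgeR), and in *nkd1 nkd2* (−1.49, SE 0.215, adjusted P = 5.07e-05, edgeR). All libraries of the genotype with mutant *o2* were below all libraries of its counterpart in each of these 3 pairs, in which 1.54%, 1.17%, and 5.56% of genes were called lower. The *nkd2 o2* call was lost without replicate 3 (−0.88) or 4 (−0.81), and the *nkd1 o2* call without replicate 1 (−0.96). For *bzip17*, loss of O2 was called in *nkd1* (−1.75, SE 0.472, adjusted P = 0.0159, edgeR) and in *nkd1 nkd2* (−3.45, SE 0.508, adjusted P = 6.17e-05, edgeR). It was not called in *nkd2* (−1.29, adjusted P = 0.0949, edgeR), although all 4 *nkd2 o2* libraries were below all 4 *nkd2* libraries. The *bzip17* call in *nkd1* was lost without replicate 1 (−1.28, adjusted P = 0.209, edgeR). Loss of NKD2 from *o2* came with a higher *bzip17* level (*nkd2 o2* against *o2*, log2FC 1.44, SE 0.481, adjusted P = 0.0285, edgeR), where 4.81% of genes were called higher, but that call was lost without replicate 1 (1.5, adjusted P = 0.0801), 3 (1.47, adjusted P = 0.0676), or 4 (1.0, adjusted P = 0.203, all edgeR).

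*mybr13* was barely expressed at 8 DAP. Its libraries held 0 to 51 reads, at most 0.799 CPM, in every genotype. None of the 7 comparisons of *mybr13* with WT was called by edgeR or by DESeq2, and none had an unadjusted P below 0.05. The largest log2FC of *mybr13* against WT, 1.68 in *nkd1*, had an SE of 0.824, so that at this depth only large differences could have been detected. Within mutant backgrounds, in comparisons chosen afterwards, edgeR called no difference of *mybr13*. All *nkd1 nkd2 o2* libraries were below all *nkd1 nkd2* libraries (log2FC −2.09, SE 0.842, adjusted P = 0.0881, edgeR). DESeq2 called it lower in *nkd1 o2* than in *nkd1* (−2.38, adjusted P = 0.036) and *o2* (−2.13, adjusted P = 0.0409). It also called *nkd1 nkd2 o2* lower than *o2* (−2.04, adjusted P = 0.0464, DESeq2). These calls rest on the same few reads.

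Interaction terms asked whether the effect of one mutation differed with the state of the other gene, in the 16 libraries of 4 genotypes that cross 2 factors, with a call at adjusted P below 0.05 alone. At 8 DAP, 5 of the 12 terms of the 3 genes were called, all negative. For *gbf1* these were the *nkd1* by *o2* term (−0.89, SE 0.310, adjusted P = 0.0452, edgeR), the *nkd1* by *nkd2* term (−0.87, SE 0.304, adjusted P = 0.0492, edgeR), and the *nkd1 nkd2* by *o2* term (−1.17, SE 0.236, adjusted P = 0.00344, edgeR). In these terms, 11.8%, 11.3%, and 7.64% of genes had a called negative value. In either direction, 26.7%, 23.6%, and 15.8% of genes were called in them, and 30.4% in the *nkd2* by *o2* term. The higher *gbf1* level of *nkd1* over WT, 29.6 ± 8.33 against 13.4 ± 3.01 CPM, had no counterpart on the *o2* background, with 12.7 ± 2.49 CPM in *nkd1 o2* against 11.7 ± 1.86 CPM in *o2* (SD, n = 4 each). For *mybr13*, the *nkd1* by *o2* term (−3.71, SE 1.30, adjusted P = 0.0460, edgeR) and the *nkd1 nkd2* by *o2* term (−3.47, SE 0.943, adjusted P = 0.0204, edgeR) were called, and they rest on the few reads given above. No term of *bzip17* was called by edgeR. Of the 12 terms, 1 was called without replicate 1, 1 without replicate 2, and 1 without replicate 3 of every group, in fits with 4 fewer libraries, and none of the 5 was called in all 4 of the fits that leave out a replicate. Their sign did not change in those fits.

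**Figure D1:**
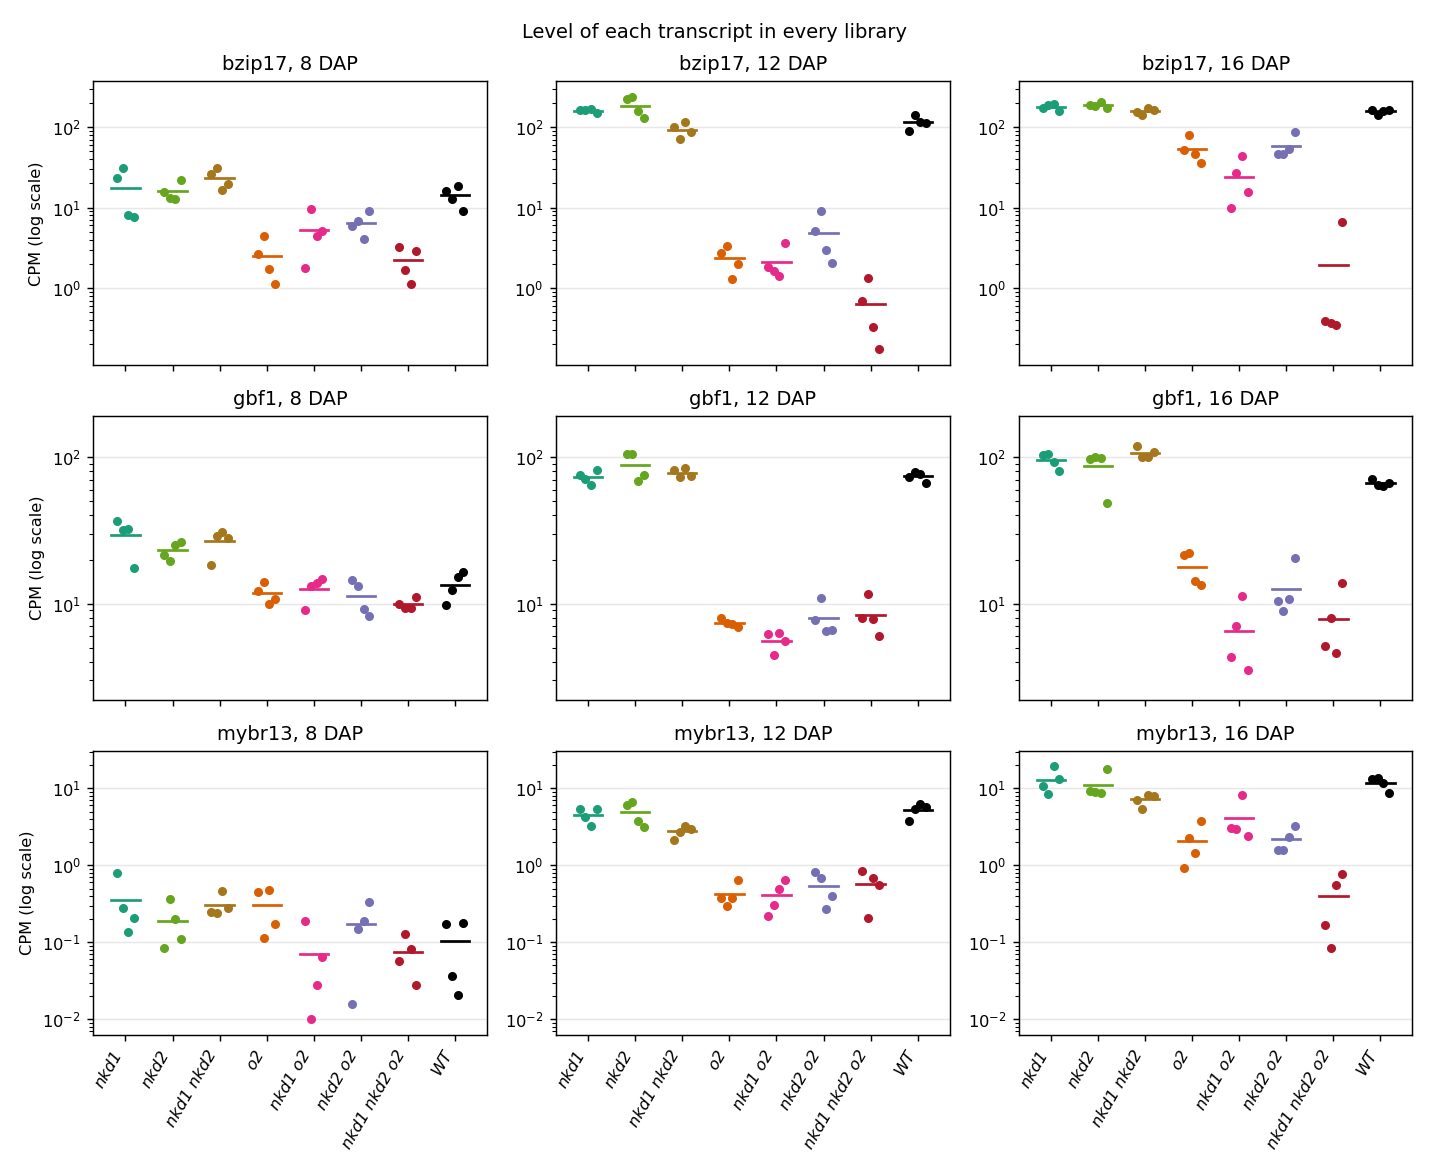
Level of *bzip17*, *gbf1*, and *mybr13* (CPM, log scale) in each of the 96 libraries, by genotype and timepoint, with a point per library and a line at the mean of the 4 libraries of a group. A library with 0 reads is drawn at 0.01 CPM. At 12 DAP the 4 genotypes with mutant *o2* lie below all others for each gene, and at 16 DAP *bzip17* is at 35.4 to 78.8 CPM in *o2* but at 0.351 to 6.56 CPM in *nkd1 nkd2 o2*.

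At 12 DAP, all 3 genes were low in every genotype with mutant *o2*. These values took part in the choice of the genes and describe how large the difference was. *bzip17* was at 2.76, 3.34, 1.29, and 1.99 CPM in *o2*, against 88.9, 140.0, 116, and 112 CPM in WT, a log2FC of −5.59 (SE 0.421). It was lowest in *nkd1 nkd2 o2*, with 0.692, 1.35, 0.333, and 0.175 CPM, which came from 10 to 84 reads per library and gave a log2FC of −7.48 (SE 0.475) against WT. The triple mutant overlapped *o2* in 1 library. *gbf1* was at 7.99, 7.35, 7.22, and 6.94 CPM in *o2*, against 72.9, 79.9, 76.4, and 67.0 CPM in WT, a log2FC of −3.30 (SE 0.178). For *gbf1* the triple mutant, at 6.03 to 11.6 CPM, lay around the level of *o2*, and *nkd1 o2*, at 4.43 to 6.25 CPM, lay below all *o2* libraries. *mybr13* was at 0.377, 0.296, 0.374, and 0.645 CPM in *o2*, against 3.78, 5.45, 6.23, and 5.80 CPM in WT, a log2FC of −3.61 (SE 0.385). In the other genotypes with mutant *o2*, the log2FC of *mybr13* was between −3.65 and −3.23.

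All 12 values of the 3 genes in the 4 genotypes with mutant *o2* were below −1 on the log2 scale, and none of the 9 values in *nkd1*, *nkd2*, and *nkd1 nkd2* was. Values below −1 were found for 10.7% of all genes in *o2*, 9.70% in *nkd1 o2*, 9.69% in *nkd2 o2*, and 12.2% in *nkd1 nkd2 o2*. They were found for 4.57% in *nkd1*, 6.09% in *nkd2*, and 8.78% in *nkd1 nkd2*. The absence of such values with O2 intact is therefore near the overall share. With O2 intact, the genes differed from each other. *mybr13* was at 2.13 to 3.27 CPM in *nkd1 nkd2*, below all WT libraries, with a log2FC of −0.95 (SE 0.341). In *nkd1 nkd2*, *bzip17* (−0.31, SE 0.337) and *gbf1* (0.08, SE 0.161) overlapped WT, while *o2* was at 231 to 336 CPM, against 594 to 774 CPM in WT, a log2FC of −1.27 (SE 0.226, adjusted P = 8.86e-05, edgeR). *bzip17* was above all WT libraries in *nkd1*, at 151 to 166 CPM, with a log2FC of 0.48 (SE 0.337).

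At 16 DAP, the deficit of *bzip17* in *o2* was much smaller than at 12 DAP, but in the triple mutant the gene stayed near zero. The values of *bzip17* and *gbf1* again took part in the choice. *bzip17* had 52.3, 78.8, 46.3, and 35.4 CPM in *o2*, against 162, 143, 157, and 164 CPM in WT, a log2FC of −1.57 (SE 0.478). It had 46.1, 46.6, 53.5, and 87.0 CPM in *nkd2 o2* (−1.44, SE 0.476) and 9.92, 26.7, 43.4, and 15.7 CPM in *nkd1 o2* (−2.72, SE 0.5). In *nkd1 nkd2 o2* it had 0.392, 0.373, 0.351, and 6.56 CPM, a log2FC of −6.37 against WT (SE 0.609). Without replicate 4 of every group the value was −8.69. The order of the group means of *bzip17* ran from *nkd2* through *nkd1*, *nkd1 nkd2*, and WT, whose ranges overlapped from each to the next, to *nkd2 o2*, *o2*, and *nkd1 o2*, which also overlapped in turn, and ended with the triple mutant, apart from all others.

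*gbf1* recovered less. At 16 DAP it had 21.6, 22.1, 14.2, and 13.4 CPM in *o2*, against 70.8, 64.6, 63.7, and 67.2 CPM in WT, a log2FC of −1.91 (SE 0.313). It was lower in *nkd1 o2*, at 4.34, 7.05, 11.3, and 3.50 CPM (−3.35, SE 0.336), below all *o2* libraries, and in *nkd1 nkd2 o2*, at 5.10, 8.01, 4.58, and 13.8 CPM (−3.10, SE 0.330). *nkd2 o2* was at 8.92 to 20.6 CPM (−2.41, SE 0.320). All 8 values of *bzip17* and *gbf1* in the genotypes with mutant *o2* were below −1, as were 11% of all genes in *o2*, 12.6% in *nkd1 o2*, 9.25% in *nkd2 o2*, and 13.1% in *nkd1 nkd2 o2*. With O2 intact, *gbf1* was above all WT libraries in *nkd1 nkd2*, at 100 to 120 CPM (0.71, SE 0.302), and in *nkd1*, at 80.8 to 106 CPM (0.52, SE 0.302). In *nkd2* it was near 100 CPM in 3 libraries and at 48.6 CPM in replicate 4. The *o2* transcript was lower in *nkd1 nkd2* at this timepoint, at 389 to 567 CPM, against 1005 to 1211 CPM in WT (log2FC −1.18, SE 0.235, adjusted P = 0.000251, edgeR), so *gbf1* and *o2* differed from WT in opposite directions there.

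For *mybr13*, which the study did not list as a hub of 16 DAP, the differences from WT were tested at that timepoint. It had 0.911, 2.25, 1.43, and 3.72 CPM in *o2*, against 13.4, 13.6, 11.6, and 8.80 CPM in WT. In *nkd1 nkd2 o2* it had 0.168, 0.0847, 0.555, and 0.782 CPM, from 5 to 43 reads. Every library of the 4 genotypes with mutant *o2* was below every WT library, and the 4 genotypes were called. The log2FC was −2.55 in *o2* (SE 0.451, adjusted P = 5.66e-05, edgeR), −1.53 in *nkd1 o2* (SE 0.431, adjusted P = 0.00517, edgeR), −2.45 in *nkd2 o2* (SE 0.448, adjusted P = 9.61e-05, edgeR), and −4.91 in *nkd1 nkd2 o2* (SE 0.517, adjusted P = 5.45e-09, edgeR). Of all genes, 7.12%, 8.54%, 5.42%, and 10.3% were called lower in these 4 genotypes. The 4 calls held in all alternatives tried. *nkd1* and *nkd2* overlapped WT. In *nkd1 nkd2*, *mybr13* had 7.15, 5.43, 8.13, and 7.99 CPM, below all WT libraries, but the log2FC of −0.71 was not called (SE 0.421, adjusted P = 0.198, edgeR).

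In comparisons also chosen afterwards, *mybr13* was lower with loss of O2 at 16 DAP in *nkd1* (log2FC −1.64, SE 0.432, adjusted P = 0.00305), in *nkd2* (−2.37, SE 0.447, adjusted P = 9.99e-05), and in *nkd1 nkd2* (−4.20, SE 0.505, adjusted P = 2.23e-07, all edgeR), where 8.34%, 6.31%, and 5.42% of genes were called lower. It was lower still with loss of both NKDs on the *o2* background (*nkd1 nkd2 o2* against *o2*, −2.37, SE 0.494, adjusted P = 0.000247, edgeR), a comparison with 7.27% of genes called lower. Loss of NKD1 alone from *o2* gave the opposite sign, 1.02 (SE 0.438, adjusted P = 0.0789, edgeR), which was not called, and *nkd1 o2* replicate 3, at 8.09 CPM, stood apart from 2.40 to 3.06 CPM in the other 3. Without replicate 4 of every group it was 1.63 (adjusted P = 0.00608, edgeR). None of the 4 interaction terms of *mybr13* at 16 DAP was called by edgeR, the *nkd1 nkd2* by *o2* term of −1.65 being nearest (SE 0.643, unadjusted P = 0.0197, adjusted P = 0.0723). It was the only one of the 4 with an unadjusted P below 0.05, and the only one called by DESeq2 (adjusted P = 0.0288). Of all genes, edgeR called 17.4% in the *nkd1* by *nkd2* term and 21.4% in *nkd1* by *o2*, in either direction. It called 21.8% in *nkd2* by *o2* and 23.5% in *nkd1 nkd2* by *o2*. The lack of a call among 4 terms is near these shares. 

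**Figure D2:**
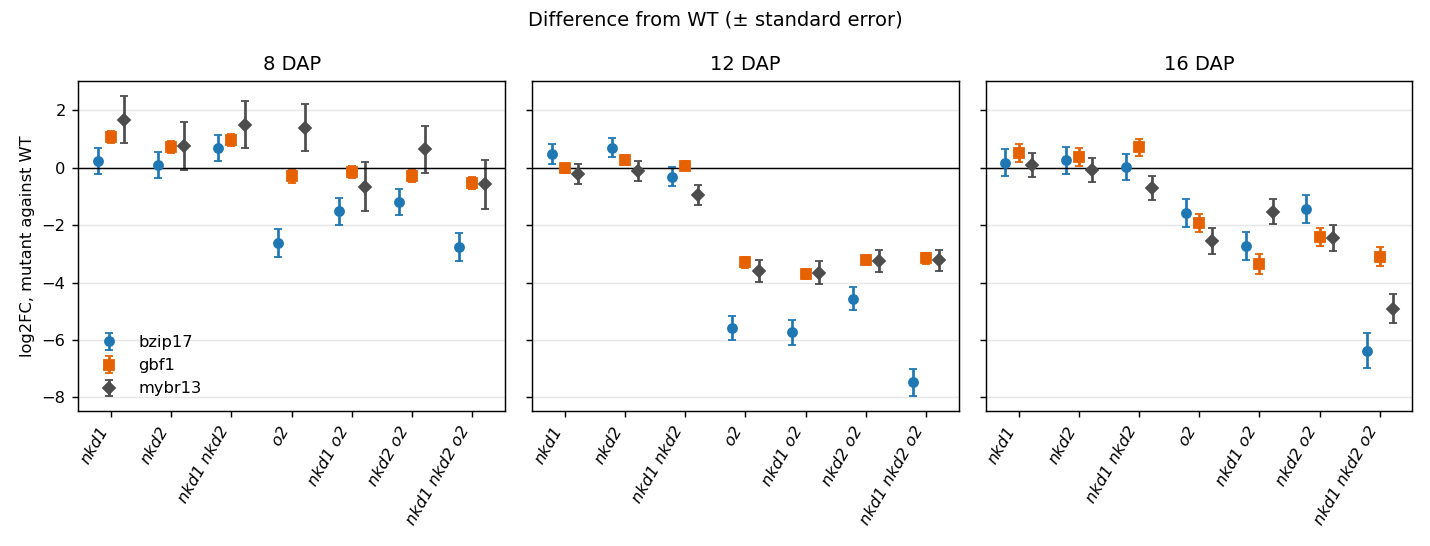
Difference of each mutant from WT (log2FC, vertical axis) for *bzip17*, *gbf1*, and *mybr13* at 8, 12, and 16 DAP, as points with bars of 1 SE from edgeR's fit of the 32 libraries of a timepoint. Values in the genotypes with mutant *o2* are from −7.48 to −3.16 at 12 DAP, and at 16 DAP *bzip17* spans −6.37 in *nkd1 nkd2 o2* to −1.44 in *nkd2 o2*.

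Zein transcripts, many of them O2 targets, are given for the same libraries. At 16 DAP, the 16 zein genes summed to 41600 to 46800 CPM in *o2*, 7780 to 18900 CPM in *nkd1 o2*, 16000 to 37300 CPM in *nkd2 o2*, and 15.7 to 911 CPM in *nkd1 nkd2 o2*, against 260000 to 283000 CPM in WT. Among the genotypes with mutant *o2*, the triple mutant had the lowest zein sum and the lowest mean of *bzip17* and *mybr13*, whereas the lowest mean of *gbf1* was in *nkd1 o2*. Replicate 4 of the triple mutant, the library with 6.56 CPM of *bzip17*, had 911 CPM of zein transcripts, against 15.7 to 30.0 CPM in the other 3, and was also the highest of the 4 for *gbf1* and *mybr13*. It had 2 reads of *o2*. Replicate 4 of *nkd2 o2* was the highest of its group for *bzip17*, *gbf1*, *mybr13*, and the zein sum. The part of these libraries in the results was not tested beyond leaving out replicate 4.

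In the genotypes with intact *o2*, all 3 genes were higher at 12 than at 8 DAP. The 12 DAP libraries, which took part in the choice of the genes, are one side of each step in time. Calls and P-values at these steps, also those of *mybr13*, are therefore not independent of that choice. In the study, the 12 DAP module of the 3 genes was positively correlated with *o2*. The choice itself thus favors a rise to 12 DAP with intact *o2* and none with mutant *o2*. Calls between 8 and 12 DAP describe that choice in part and are no separate support for it. For *bzip17* and *gbf1* both sides of the step between 12 and 16 DAP took part in it, so their values at that step are a description with no test. In WT, *bzip17* rose 8.06-fold between 8 and 12 DAP (log2FC 3.01, SE 0.480, adjusted P = 9.82e-08) and *gbf1* 5.50-fold (2.46, SE 0.256, adjusted P = 1.20e-13, both edgeR). *mybr13* rose by a log2FC of 5.58 (SE 0.613, adjusted P = 9.50e-13, edgeR), a value that rests on 1 to 13 reads per WT library at 8 DAP. All 3 genes were also called higher at 12 than at 8 DAP in *nkd1*, *nkd2*, and *nkd1 nkd2*, and every later library was above every earlier one. Of all genes, 9% in *nkd1*, 12.8% in *nkd2*, 7.73% in *nkd1 nkd2*, and 13.3% in WT were called higher at this step.

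In *o2*, where the choice of the genes favored low values at 12 DAP, none of the 3 genes was called higher at 12 than at 8 DAP. The log2FC was −0.08 for *bzip17* (SE 0.510, adjusted P = 0.915), −0.67 for *gbf1* (SE 0.250, adjusted P = 0.0208, under the fold threshold, every later library below every earlier one), and 0.48 for *mybr13* (SE 0.543, adjusted P = 0.480, all edgeR). *gbf1* fell in *nkd1 o2* (−1.18, SE 0.254, adjusted P = 5.79e-05, edgeR), with 9.09 to 14.7 CPM at 8 DAP and 4.43 to 6.25 CPM at 12 DAP. *bzip17* fell in *nkd1 o2* (−1.31, SE 0.5, adjusted P = 0.0231, edgeR) and in *nkd1 nkd2 o2* (−1.78, SE 0.581, adjusted P = 0.00749, edgeR). In these 2 genotypes, 14.5% and 11.1% of genes were called lower. The fall of *bzip17* was lost in *nkd1 o2* without replicate 2 (−0.72, adjusted P = 0.316) or replicate 3 (−1.24, adjusted P = 0.0763) and in *nkd1 nkd2 o2* without replicate 1 (−1.58, adjusted P = 0.0688), and in both when only the 12 libraries of the genotype were fitted (adjusted P = 0.0525 and 0.111, all edgeR). *mybr13* differed from the other 2 genes in that it was called higher at 12 DAP in *nkd1 o2* (2.55, SE 0.639, adjusted P = 0.000520), *nkd2 o2* (1.66, SE 0.562, adjusted P = 0.00943), and *nkd1 nkd2 o2* (2.91, SE 0.623, adjusted P = 5.51e-05, all edgeR), where 10.1%, 10.6%, and 13.4% of genes were called higher, although it still reached only 0.209 to 0.838 CPM. The *nkd2 o2* call was lost without replicate 1 (1.01, adjusted P = 0.157, edgeR). These 3 calls rest on 0 to 13, 1 to 21, and 2 to 9 reads per library at 8 DAP, against 6 to 29 reads in *o2*. At 12 DAP, *mybr13* averaged 0.42, 0.54, and 0.57 CPM in the 3 genotypes and 0.42 CPM in *o2*. The difference between the genes was not tested.

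Between 12 and 16 DAP, the log2FC of *bzip17* was 4.51 in *o2* (SE 0.529), 3.61 in *nkd2 o2* (SE 0.501), and 3.50 in *nkd1 o2* (SE 0.517), and every later library was above every earlier one. It was 0.15 in *nkd1*, 0.02 in *nkd2*, 0.76 in *nkd1 nkd2*, and 0.45 in WT. For *gbf1* the log2FC was 1.28 in *o2* (SE 0.252), with 6.94 to 7.99 CPM at 12 DAP and 13.4 to 22.1 CPM at 16 DAP. It was 0.66 in *nkd2 o2* (SE 0.251) and 0.23 in *nkd1 o2* (SE 0.257), and −0.15 in WT. *mybr13* was called higher in 7 of 8 genotypes, by 2.26 in *o2* (SE 0.518, adjusted P = 0.000282), 3.31 in *nkd1 o2* (SE 0.532, adjusted P = 3.20e-07), and 2.0 in *nkd2 o2* (SE 0.510, adjusted P = 0.00142, all edgeR), and by 1.16 to 1.5 in the 4 genotypes with intact *o2*. Of these 4 smaller rises, that in WT (1.16, SE 0.471, adjusted P = 0.0463, edgeR) was lost without any one of the replicates and without the filter on low counts (adjusted P = 0.0621), and those in *nkd1*, *nkd2*, and *nkd1 nkd2* were lost without 1 or more of them. The rise in *nkd2* was also lost without that filter (adjusted P = 0.0560, edgeR). Genes called higher at this step made up 5.10% in *nkd1*, 4.26% in *nkd2*, 6.05% in *o2*, 7.41% in *nkd1 o2*, 5.05% in *nkd2 o2*, 5.61% in *nkd1 nkd2*, 3.97% in *nkd1 nkd2 o2*, and 4.67% in WT.

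In the triple mutant, *mybr13* was not called between 12 and 16 DAP (log2FC −0.52, SE 0.529, adjusted P = 0.511, edgeR). The value was −0.08 for *gbf1* (SE 0.251) and 1.56 for *bzip17* (SE 0.594), and that of *bzip17* was −1.11 (SE 0.658) without replicate 4 of every group. The difference between genotypes in these steps was not tested.

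**Figure D3:**
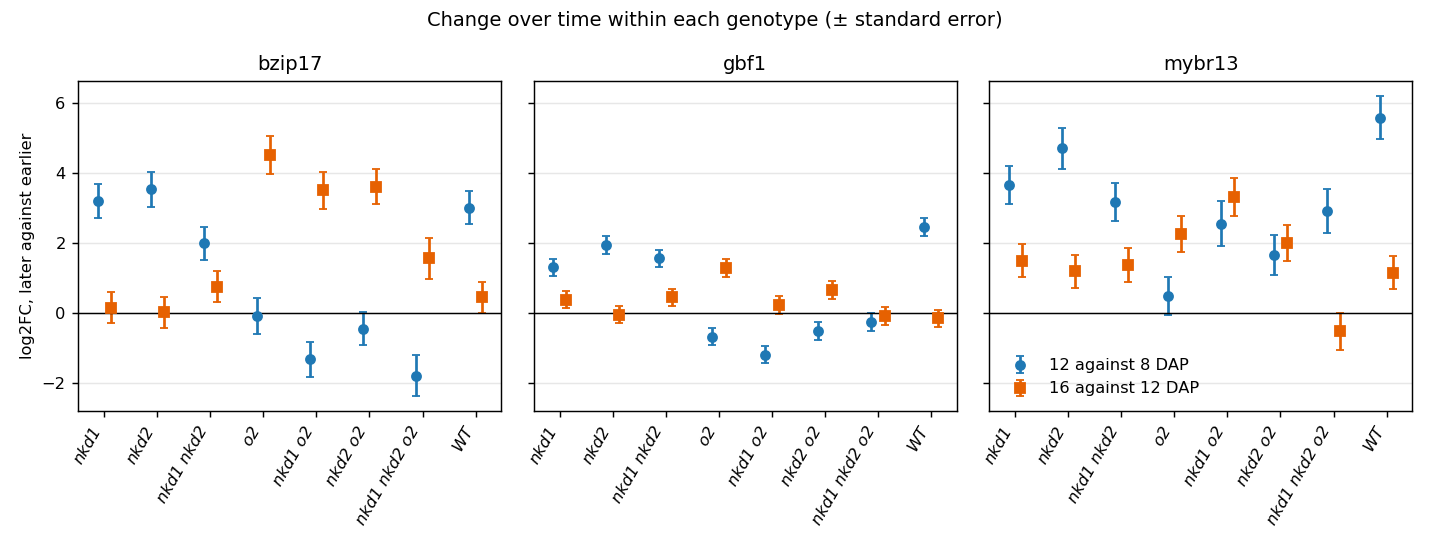
Change of *bzip17*, *gbf1*, and *mybr13* within each genotype (log2FC, later against earlier timepoint) from 8 to 12 DAP and from 12 to 16 DAP, as points with bars of 1 SE from the fit of all 96 libraries. *bzip17* changed by −0.08 in *o2* and 3.01 in WT at the first step, and by 4.51 in *o2* and 0.45 in WT at the second.

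The 3 genes were chosen for following a shared profile at 12 DAP, and 2 of them at 16 DAP, so their likeness to each other and to *o2* describes that choice in part and is no separate result. Over the group means of log2 CPM, Pearson's r was 0.87 for *bzip17* and *gbf1*, 0.80 for *bzip17* and *mybr13*, and 0.71 for *gbf1* and *mybr13*. With *o2* it was 0.91 for *gbf1*, 0.87 for *bzip17*, and 0.70 for *mybr13*. These values describe 24 points that share genotypes and timepoints. Among ears of one group, measured as deviations from the group means in 96 libraries, r was 0.62 for *bzip17* and *gbf1*. For the other pairs r of the deviations was between −0.016, for *gbf1* and *o2*, and 0.34, for *mybr13* and *o2*. The libraries with few *mybr13* reads limit what its values can show.

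The genes most like each of the 3 over the 24 group means, among 27327 others, were ranked by Pearson's r. Those most like *bzip17* were Zm00001d003277 (r = 0.980) and Zm00001d003280 (r = 0.971), annotated as a stachyose synthase and a galactinol-sucrose galactosyltransferase, enzymes of raffinose family sugars. They were followed by Zm00001d028733 (r = 0.964), a catalytic subunit of an SNF1-related kinase, the 22-kDa alpha-zein gene *az22z3* (Zm00001d048809, r = 0.957), and Zm00001d048816 (r = 0.954). Those most like *gbf1* were Zm00001d037637 (r = 0.974), a lactoylglutathione lyase that detoxifies methylglyoxal, Zm00001d002132 (r = 0.971), the UDP-glycosyltransferase Zm00001d046479 (r = 0.969), the CONSTANS-like gene *col2* (Zm00001d033719, r = 0.960), and Zm00001d052493 (r = 0.952), an aluminium-induced protein. Those most like *mybr13* were Zm00001d016230 (r = 0.977), an ADP,ATP carrier, Zm00001d013746 (r = 0.966), Zm00001d028960 (r = 0.964), *bhlh175* (Zm00001d042263, r = 0.964), and Zm00001d009578 (r = 0.963), of a ribosomal protein family. No gene was among the 5 of more than 1 of the 3.

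Other genes of the O2 network were set beside them. These lists were drawn from a storage module that the study built on these libraries, so their direction is not independent evidence. The 6 O2 and GBF1 pathway genes were *lkrsdh1*, of lysine breakdown, the pyruvate orthophosphate dikinase genes *pdk1* and *pdk2*, the ribosome-inactivating protein gene *rip1*, the asparagine synthetase gene *asn2*, and the beta-zein gene *zp15*. In *o2*, 4 of the 5 tested were called lower at 8 DAP, 6 of 6 at 12 DAP, and 5 of 6 at 16 DAP, with a median log2FC of −1.21, −4.75, and −1.81, beside −0.11, 0.01, and 0.00 over all genes. Of all genes, 13.7%, 6.65%, and 7.12% were called lower in *o2* at 8, 12, and 16 DAP. Like *bzip17*, *lkrsdh1* was low in *o2* at 12 DAP and had a higher level at 16 DAP (log2FC 5.22, SE 0.492), 444 ± 162 CPM in *o2*, against 1636 ± 186 CPM in WT (SD, n = 4 each). Also called higher in *o2* at this step were *zp15* (5.93, SE 0.695), *asn2* (2.03, SE 0.672), and *rip1* (13.19, SE 1.82). Not called were *pdk1* (0.78, SE 0.213) and *pdk2* (−0.15, SE 0.167). Of the 16 zein genes, 14 were called higher at this step, beside 6.05% of all genes. In *nkd1* at 8 DAP, where *gbf1* was higher, 4 of the 5 tested were called higher, beside 1.45% of all genes, among them *pdk1* (log2FC 1.6, SE 0.207) and *lkrsdh1* (1.30, SE 0.267).

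Of the 4 other bZIP genes of that module, only *bzip104* was expressed well. It was 12.3 ± 0.937 CPM in *o2*, against 29.9 ± 11.2 CPM in WT at 8 DAP (log2FC −1.41, SE 0.265), and 20.3 ± 4.15 CPM against 49.4 ± 1.06 CPM at 12 DAP (−1.26, SE 0.162). Of the 4, 1 of 1 tested was called lower in *o2* at 8 DAP, 3 of 4 at 12 DAP, and 1 of 3 at 16 DAP, to be read against the shares of all genes just given. Of 30 transcription factor genes of the module, *bzip104* among them, 8 of 23 tested were called lower in *o2* at 8 DAP, 21 of 27 at 12 DAP, and 16 of 27 at 16 DAP, beside 13.7%, 6.65%, and 7.12% of all genes. Called higher were 1, 1, and 0 of them, beside 2.01%, 3.22%, and 5.35% of all genes. Their median log2FC in *o2* at 12 DAP was −2.38, against −5.59 for *bzip17*, −3.30 for *gbf1*, and −3.61 for *mybr13*. These 3 genes were chosen as hubs on the 12 DAP libraries, so this comparison describes that choice and is no separate result. Of the 16 zein genes, *o2* had 4 called lower at 8 DAP, 15 at 12 DAP, and 8 at 16 DAP, beside the same shares of all genes. The 1 zein gene called higher at 16 DAP is near the overall share of 5.35%.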

How the data were processed

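RNA of 96 pooled endosperm libraries was sequenced. According to the submitters' processing notes, the authors used HISAT2 2.1.0, SAMtools 1.9, StringTie 1.3.6, and HTSeq 0.11.1 with the B73 RefGen_v4 genome, so W22 reads were placed on B73 genes. The strand setting of the counting is not given in the sources used here. The deposited values are whole-number read counts per gene, not normalized. Here, edgeR 4.0.16 in R 4.3.3 was run on these counts after its filter on low counts (filterByExpr) and TMM normalization. Mutants were compared within a timepoint (32 libraries), steps in time within a genotype (96 libraries), and interactions in 16 libraries. P-values were adjusted over all genes tested, which were 25467, 24504, and 24239 at 8, 12, and 16 DAP and 27328 over time. SE is the log2FC divided by the root of the F statistic. Means of log2 CPM for correlations used a prior count of 2. The scripts were tested on simulated data. Alternatives were DESeq2 1.42.0, its size factors, no filter, narrower fits, a replicate block, and leaving out each replicate number.

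The named genes were the 3 genes, the mutated genes, the 5 most similar genes of each, and lists from the study's storage module. The genes and lists were chosen with earlier results of these data known. Tests span separate ears, so P-values measure the spread between ears. Where a comparison lay outside the original plan, it is named as chosen afterwards. No sequences were printed, since no genome was used here. 1 gene of the pathway list is not reported here.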

Additional observations from a re-analysis of the deposited data

Results flagged for a closer look

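In 6 of 72 groups of 4 libraries, 1 library stood apart from the other 3 by Dixon's criterion, which chance gives in about 1 in 20 groups. *bzip17* was 6.56 CPM in replicate 4 of *nkd1 nkd2 o2* at 16 DAP, against 0.351 to 0.392 CPM in the others. *gbf1* was 48.6 CPM in replicate 4 of *nkd2* at 16 DAP, against 97.9 to 100 CPM, and 20.6 CPM in replicate 4 of *nkd2 o2*, against 8.92 to 10.8 CPM. *mybr13* was 17.8 CPM in replicate 4 of *nkd2* at 16 DAP, against 8.70 to 9.37 CPM, 8.09 CPM in replicate 3 of *nkd1 o2* at 16 DAP, against 2.40 to 3.06 CPM, and 0.461 CPM in replicate 3 of *nkd1 nkd2* at 8 DAP, against 0.240 to 0.276 CPM. So 4 of the 6 values came from libraries numbered 4 at 16 DAP.

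Terms asking whether the effect of a mutation differed with the state of another gene were called in 5 of 12 cases at 8 DAP. None of the 5 was called in every fit that left out a replicate number. For *gbf1* these were *nkd1* by *nkd2* (−0.87, adjusted P = 0.0492), *nkd1* by *o2* (−0.89, adjusted P = 0.0452), and *nkd1 nkd2* by *o2* (−1.17, adjusted P = 0.00344, all edgeR). For *mybr13* they were *nkd1* by *o2* (−3.71, adjusted P = 0.0460) and *nkd1 nkd2* by *o2* (−3.47, adjusted P = 0.0204, both edgeR), and both rest on few reads. The share of all genes called in such terms, in either direction, ran from 15.8% (*nkd1 nkd2* by *o2*) to 30.4% (*nkd2* by *o2*).

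Between 8 and 12 DAP, *gbf1* was lower in every later library in *o2* (log2FC −0.67) and in *nkd1 o2* (−1.18), and higher in every later library in *nkd1*, *nkd2*, *nkd1 nkd2*, and WT. This difference between genotypes was not tested.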

How the results depend on the processing

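With a replicate number left out of every group, the count of calls was 2 to 5 (4 with all libraries) for mutants against WT at 8 DAP, 4 for *mybr13* at 16 DAP, 1 to 5 (5) for interactions at 8 DAP, 0 for *mybr13* interactions at 16 DAP, 4 to 7 (6) for mutant backgrounds at 8 DAP, and 4 to 5 (4) for those of *mybr13* at 16 DAP. The 12 values at 12 DAP and the 8 at 16 DAP below −1 were so in every alternative run. The value of *bzip17* in *nkd1 nkd2 o2* between 12 and 16 DAP reversed without replicate 4, and ranged over the 4 fits that leave out a replicate number between −1.11 and 2.61 (1.56 with all libraries). DESeq2 called 1 *mybr13* interaction at 16 DAP, against 0 by edgeR, 7 interactions at 8 DAP, and 9 differences in mutant backgrounds at 8 DAP. The causes were not tested.

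Replicate numbers did not pair the libraries. Deviations of 84 same-numbered mutant and WT libraries correlated between −0.43 and 0.31, with 10 above 0.1, and 21 correlated best with their own number. With the replicate block, 3 interactions at 8 DAP were called, *nkd1* by *nkd2* (adjusted P = 0.0634) and *nkd1* by *o2* (adjusted P = 0.0681) of *gbf1* being lost, and the rise of *mybr13* in *nkd2* between 12 and 16 DAP was lost (adjusted P = 0.0553, all edgeR). No other call changed. DESeq2 size factors changed no call. Depth limits *mybr13* most, with 0 to 51 reads per library at 8 DAP.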
